A study of Mus musculus with 4 samples.

Results

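Risperidone, an antipsychotic drug, was applied to 3T3-L1 cells described in the methods as differentiated. In the mRNA of these cells, 10 genes of heme breakdown, iron storage and iron transport were followed. The genes were the heme oxygenases Hmox1 and Hmox2, the ferritin chains Fth1 and Ftl1, the ferritin receptor Ncoa4, the iron importers Tfrc and Slc11a2, the iron exporter Slc40a1, and the iron regulatory proteins Aco1 and Ireb2. They were picked by gene symbol from the 16051 genes of the deposited table, all 10 were present, and all 10 had reads in every library. They were picked with the difference between treated and control cells already known, the opposite movement of the ferritin chains above all. Their values are therefore given as a description, with no p-value, and their calls in the fit across all genes are only counted, beside the share of all genes called.

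The 3T3-L1 line was derived from mouse embryonic fibroblasts and is used as a model of adipocyte formation. According to the methods, differentiation took 6 days, starting with isobutylmethylxanthine, dexamethasone and insulin together and continuing with insulin alone. The treated group (RIS) then received 100 μM risperidone for 48 h, and the control group (RNC) received DMSO according to the methods, although the sample labels call it untreated. Each group had 2 libraries, and each library held RNA pooled from 3 cultures, so that variation among individual cultures is not seen. In such bulk RNA, fewer cells of a type and less of an RNA per cell cannot be told apart.

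The libraries held between 15883712 and 16374119 counts on 13810 to 14657 genes. Levels are given as FPKM, fragments per kilobase of transcript scaled to the depth of the library, which allows levels to be compared between genes of different length. The 10 adipocyte markers summed to 384.9 and 438.2 FPKM in RNC and 267.8 and 278.5 FPKM in RIS. Of the 4 that averaged 1 FPKM or more, Fabp4 (log2 fold change of RIS over RNC -1.09), Lipe (-1.12) and Lpl (-0.24) fell and Pparg was not called (0.12). Adipoq, Plin1, Cidec, Cfd, Cebpa and Lep stayed under 1 FPKM in every library. The differentiated state is taken from the methods, and these marker levels alone do not show it. The 6 markers of fibroblasts and preadipocytes summed to 2104.14 and 2043.26 FPKM in RNC and 2300.72 and 2293.93 FPKM in RIS. Of these, Dlk1 (1.52), Thy1 (1.05) and Col1a1 (0.99) were higher, Col1a2 was lower (-0.16) and the other 2 were not called. The call of Col1a2 was lost with gene length offsets (-0.07) and without either RNC library (-0.13 and -0.18). These marker levels moved with the groups, as the iron genes did, and their part in the results below was not tested. The labels also mention an extraction from retina, and the 3 of 6 retina markers in the table summed to between 0.58 and 1.10 FPKM. One library stood apart. The 10 kidney markers summed to 188.3 FPKM in RIS replicate 2, led by Kap at 136.19 FPKM, and to between 1.68 and 2.65 FPKM in the other libraries. The 6 liver markers summed to 10.97 FPKM in that library, led by Cyp2e1 at 9.19 FPKM, and to at most 0.21 FPKM in the others. For the 10 iron genes, fold changes without that library are given beside those with it. Among the other genes named by rule, leaving it out ended the calls of Fech and Abcb6 and moved no called log2 fold change by more than 1.5 times. The macrophage markers Csf1r, Ptprc, Itgam and Cd163, of a cell type rich in heme oxygenase and iron exporter, were at or under 0.09 FPKM in every library, and Cd68 measured 2.64 and 3.5 FPKM in RNC and 6.34 and 6.70 FPKM in RIS (log2 fold change 1.19, adjusted p = 2.86e-04). The 4 globin genes in the table summed to 3.35 FPKM in RIS replicate 2 and to at most 0.25 FPKM in the other libraries. The highest value was 1.97 FPKM, for Hba-a1 in RIS replicate 2.

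Heme oxygenase opens the heme ring and releases iron, carbon monoxide and biliverdin. Free iron is stored inside ferritin, a hollow shell built from heavy and light chains, and is released again when the receptor NCOA4 carries ferritin to the lysosome. Iron bound to transferrin enters through the transferrin receptor, leaves the endosome through DMT1, the product of Slc11a2, and leaves the cell through ferroportin, the product of Slc40a1. When iron is scarce, the iron regulatory proteins IRP1 (from Aco1) and IRP2 (from Ireb2) bind hairpins called iron-responsive elements. A bound hairpin in the 5′UTR blocks translation, and bound hairpins in the 3′UTR of the transferrin receptor protect its mRNA from decay. Hmox1 and both ferritin genes are also known targets of the transcription factor NRF2 and of its counterpart, the repressor BACH1.

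These hairpins are the sequence feature that several of the genes share. Mouse GENCODE transcripts on GRCm38 were searched on their own strand for a bulged C, 5 stem bases and the loop CAGTGN (the letters CNNNNNCAGTGN), followed by 5 bases able to pair with the stem, G-T pairs included. In total, 4 of the 10 genes carried 7 such sites. Capitals mark the bulged C and the 6-base loop, and each site is shown over 30 bases.
Fth1 5′UTR, chr19:9982731-9982760, plus strand: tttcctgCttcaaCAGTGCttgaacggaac
Ftl1 5′UTR, chr7:45459779-45459808, minus strand: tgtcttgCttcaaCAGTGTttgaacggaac
Slc40a1 5′UTR, chr1:45925465-45925494, minus strand: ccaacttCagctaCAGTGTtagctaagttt
Tfrc 3′UTR, chr16:32631218-32631247, plus strand: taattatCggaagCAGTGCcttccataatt
Tfrc 3′UTR, chr16:32631597-32631626, plus strand: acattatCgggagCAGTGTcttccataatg
Tfrc 3′UTR, chr16:32631662-32631691, plus strand: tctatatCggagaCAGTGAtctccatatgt
Tfrc 3′UTR, chr16:32631709-32631738, plus strand: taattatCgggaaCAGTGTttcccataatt

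The ferritin sites were identical at 27 of 30 bases, and the sites of Tfrc matched one another at 18 to 25 of 30. The ferritin and ferroportin sites lay 109 bases (Fth1), 147 bases (Ftl1) and 201 bases (Slc40a1) before the coding sequence, and the 4 sites of Tfrc began 881 to 1372 bases after it. The other 6 genes had no match to these letters and this pairing in either UTR. An element with another stem or loop would not be found by this search, so a missing match does not show that a gene lacks one. Among 21866 protein-coding genes, 0.142% had a match in the 5′UTR and 0.585% in the 3′UTR. The pattern was taken from known elements, so nothing is read from these shares about the genes that matched. A match describes the sequence and does not show that it is bound.

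**Figure D1:**
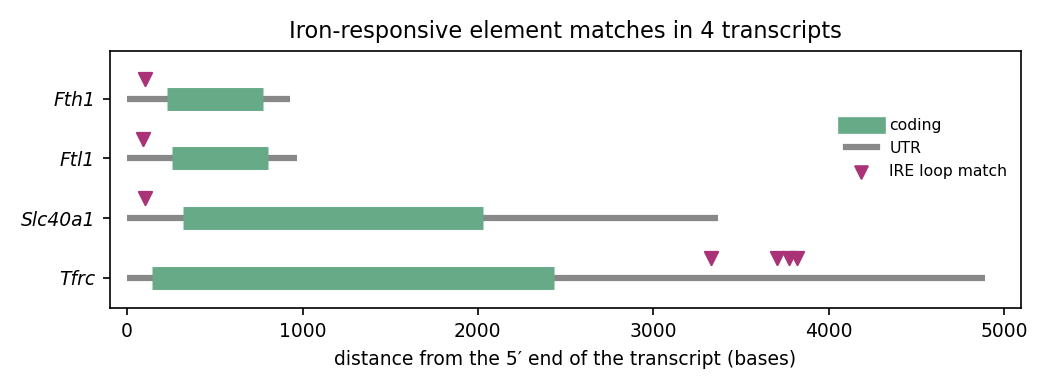
Matches to the iron-responsive element pattern drawn on 1 transcript of each of the 4 genes that carried one, in bases from the transcript start, with the coding sequence as a thick bar and each site as a triangle. Fth1, Ftl1 and Slc40a1 carry 1 site each before the coding sequence, and Tfrc carries 4 sites after it.

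Hmox1, the inducible heme oxygenase (NCBI Gene 15368, GRCm38.p6 chr8:75093618-75100593), had the third highest level of the 10 genes in both groups. It measured 324.41 and 346.85 FPKM in RNC and 149.66 and 143.17 FPKM in RIS. Both treated libraries lay far below both controls, and the groups did not overlap. The means were 335.6 ± 15.9 FPKM (SD, n = 2) in RNC and 146.4 ± 4.59 FPKM in RIS. The fitted log2 fold change of RIS over RNC was -1.10 (SE 0.05), or 2.14-fold lower, and -1.06 without RIS replicate 2. Fitted changes here come from a count model that adjusts for the composition of each library. The median of all genes was 0.00 in that model and -0.09 with library size as the only scaling, so fitted changes differ somewhat from plain ratios of FPKM.

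Hmox2, the constitutive heme oxygenase (15369, chr16:4726361-4766742), measured 45.22 and 51.59 FPKM in RNC and 47.18 and 43.60 FPKM in RIS. The libraries of both groups overlapped, and the log2 fold change was 0.00 (SE 0.08), and 0.06 without RIS replicate 2. The inducible form thus outnumbered the constitutive form 7.17-fold and 6.72-fold in RNC and 3.17-fold and 3.28-fold in RIS, per unit of length.

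The ferritin chains were the most abundant of these mRNAs and exchanged rank. Fth1, whose heavy chain oxidizes iron on its way into the shell (14319, chr19:9980600-9985111), measured 12035.81 and 12189.20 FPKM in RNC and 9768.10 and 9451.78 FPKM in RIS. Ftl1, whose light chain supports formation of the iron core (14325, chr7:45457944-45459886), measured 5482.10 and 5426.06 FPKM in RNC and 11092.64 and 9981.94 FPKM in RIS. Neither gene overlapped between groups. Both treated libraries were lower for the heavy chain and higher for the light chain. The heavy chain was the gene of highest FPKM in both RNC libraries and ranked 3 and 4 in RIS, while the light chain ranked 4 in both RNC libraries and 1 and 2 in RIS.

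The size of the movement was unequal. Fth1 averaged 12112.51 ± 108.5 FPKM (SD, n = 2) in RNC and 9609.94 ± 223.7 FPKM in RIS, with a log2 fold change of -0.23 (SE 0.05), or 1.17-fold lower. Ftl1 averaged 5454.08 ± 39.6 FPKM in RNC and 10537.29 ± 785 FPKM in RIS, with a log2 fold change of 1.05 (SE 0.06), or 2.07-fold higher. Without RIS replicate 2, the changes were -0.21 and 1.13. The light to heavy ratio in FPKM was 0.455 and 0.445 in RNC and 1.14 and 1.06 in RIS, which is 2.43-fold higher on average, and 2.52-fold without RIS replicate 2. Being formed within a library, this ratio does not depend on how libraries were scaled. Summed over both chains, ferritin mRNA measured 17517.91 and 17615.26 FPKM in RNC and 20860.74 and 19433.72 FPKM in RIS.

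The Ftl1 value carries a limit of its own. In the GENCODE transcripts, 75% of the 50-base stretches of Ftl1 also occurred in 15 other genes, among them Ftl1-ps1, Gm15590 and Ftl2-ps, against 3.59% for Fth1. The deposited Ftl1 counts were not whole numbers, as happens when reads are shared out between similar sequences, and those of Fth1 were whole. This did not follow the shared stretches in every gene. The counts of Hmox2, with 0% shared, were not whole, and those of Ncoa4, with 39.1% shared, were whole. Rows for the copies of Ftl1 were not analysed here, and the part of such sharing in the Ftl1 value was not tested.

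**Figure D2:**
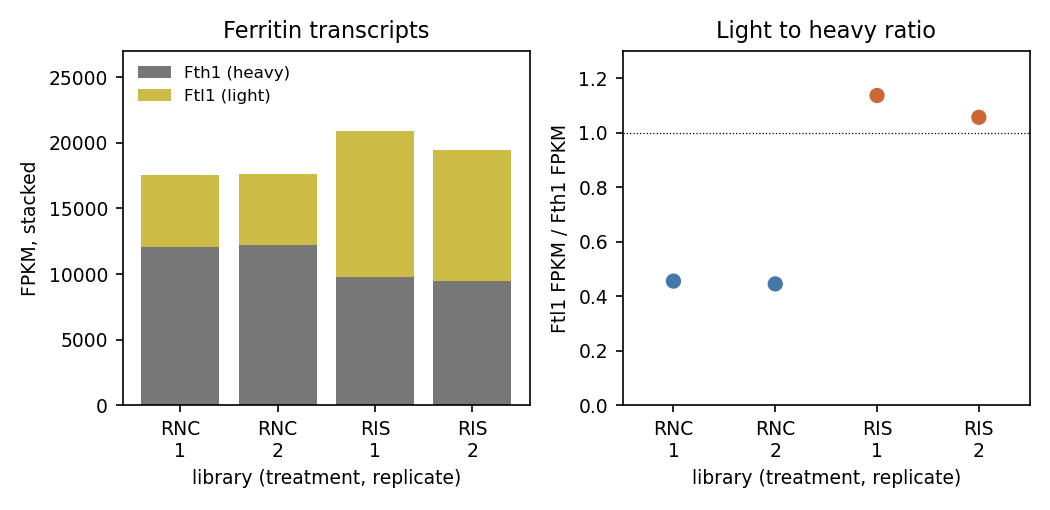
Stacked bars of FPKM for the ferritin heavy chain Fth1 and light chain Ftl1 in each of the 4 libraries (left), and the light to heavy ratio of each library, with a dotted line at 1 (right). The heavy chain is above the light chain in both RNC libraries (ratios 0.455 and 0.445) and below it in both RIS libraries (1.14 and 1.06).

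Ncoa4, the receptor that delivers ferritin to lysosomes (27057, chr14:32159879-32179855), stayed almost level. It measured 44.74 and 44.46 FPKM in RNC and 45.02 and 47.01 FPKM in RIS, without overlap but with a gap of less than 1 FPKM between the nearest libraries. The log2 fold change was 0.14 (SE 0.05). The value was 0.11 without RIS replicate 2, and its sign turned to -0.10 on the TPM scale. A processed pseudogene, Gm6768, shared 39.1% of its 50-base stretches.

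The importers moved apart. Tfrc, the transferrin receptor that takes up iron-loaded transferrin (22042, chr16:32608896-32632794), measured 17.50 and 16.33 FPKM in RNC and 5 and 6.38 FPKM in RIS, from 16.9 ± 0.827 to 5.69 ± 0.976 FPKM on average. Its log2 fold change was -1.47 (SE 0.10), or 2.78-fold lower, and -1.65 without RIS replicate 2. Slc11a2, the DMT1 transporter that moves iron across the endosomal membrane (18174, chr15:100387898-100424209), measured 33.03 and 35.31 FPKM in RNC and 42.08 and 41.21 FPKM in RIS. Its log2 fold change was 0.33 (SE 0.05), or 1.26-fold higher, and 0.35 without RIS replicate 2. Both treated libraries were thus low for the receptor and high for the transporter, with no overlap for either. The ratio of Slc11a2 to Tfrc was 1.89 and 2.16 in RNC and 8.42 and 6.46 in RIS.

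Slc40a1, which encodes ferroportin, the iron exporter (53945, chr1:45908070-45926532), had the lowest level of the 10 genes in both groups. It measured 8.96 and 6.84 FPKM in RNC and 3.71 and 4.39 FPKM in RIS. The treated libraries were lower and did not overlap the controls, although the RNC libraries differed by more than those of RIS, with means of 7.90 ± 1.499 and 4.05 ± 0.481 FPKM. The log2 fold change was -0.87 (SE 0.13), or 1.83-fold lower. It was -0.99 without RIS replicate 2, -0.66 without RNC replicate 1 and -1.05 without RNC replicate 2.

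The iron regulatory proteins changed unequally. Aco1, which encodes IRP1, a cytosolic aconitase when it holds an iron-sulfur cluster (11428, chr4:40143265-40199009), measured 13.79 and 13.43 FPKM in RNC and 3.95 and 5.25 FPKM in RIS. The means were 13.6 ± 0.255 and 4.6 ± 0.919 FPKM, and the log2 fold change was -1.47 (SE 0.09), or 2.77-fold lower, and -1.68 without RIS replicate 2. Ireb2, which encodes IRP2, a protein degraded when iron is plentiful (64602, chr9:54862658-54912534), measured 22.26 and 22.16 FPKM in RNC and 18.62 and 18.79 FPKM in RIS. Its log2 fold change was -0.15 (SE 0.05), or 1.11-fold lower, and was also -0.15 without RIS replicate 2. Neither gene overlapped between groups, and the ratio of Ireb2 to Aco1 was 1.61 and 1.65 in RNC and 4.71 and 3.58 in RIS.

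**Figure D3:**
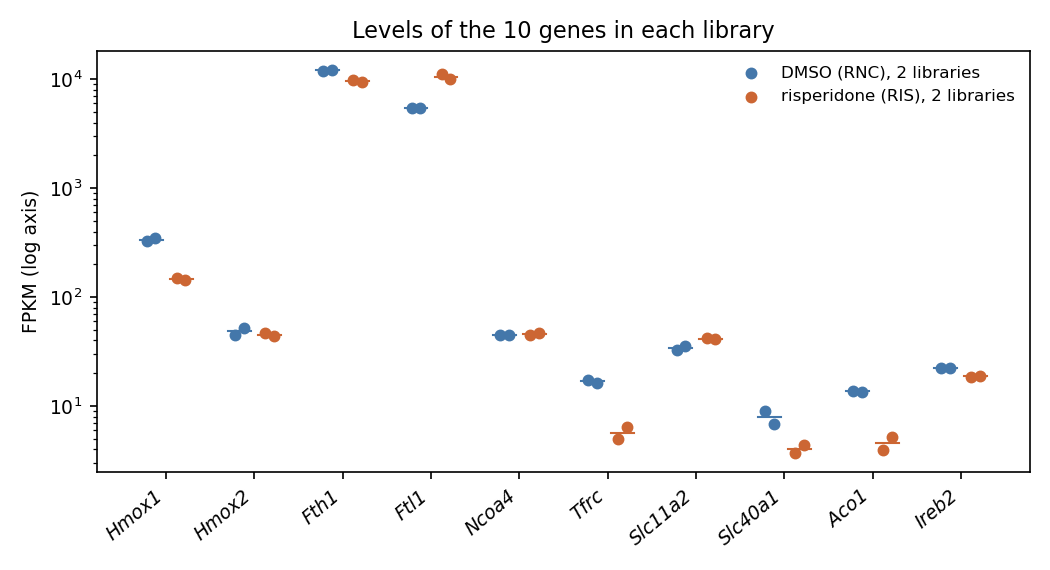
FPKM of the 10 genes on a log axis, with 1 point for each of the 2 RNC and 2 RIS libraries. The genes span from 3.71 FPKM (Slc40a1 in RIS) to 12189.20 FPKM (Fth1 in RNC), and Hmox2 alone has libraries of both groups that overlap.

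Ordered by mean FPKM, the control cells ran from Fth1 and Ftl1 through Hmox1, Hmox2, Ncoa4, Slc11a2, Ireb2, Tfrc and Aco1 to Slc40a1, and no neighbours overlapped between libraries. In treated cells, Ftl1 passed Fth1 and Ncoa4 stood above Hmox2, and the rest of the order was unchanged. There, Ncoa4 and Hmox2 overlapped, as did Tfrc with Aco1 and Aco1 with Slc40a1.

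Across all genes, the contrast was large. The test covered the 10243 genes that averaged 1 FPKM or more, and 64.3% were called at an adjusted p under 0.05 by the edgeR quasi-likelihood test, 32.1% higher and 32.2% lower in RIS. Of the 10 genes, 3 were called higher (Ftl1, Ncoa4, Slc11a2), 6 lower (Hmox1, Fth1, Tfrc, Slc40a1, Aco1, Ireb2) and Hmox2 was not called, and their median log2 fold change was -0.19 against 0.00 for all genes tested. In 9 of the 10 the groups did not overlap in FPKM, as in 82.2% of all genes. A call with a log2 fold change of -1 or lower was reached by Hmox1, Tfrc and Aco1, and by 3.91% of all genes. Since the contrast chose the genes, nothing is read from these counts. Of all genes, 30.4% had a lower log2 fold change than Fth1, 97.7% than Ftl1, 3.04% than Hmox1, 1.21% than Tfrc and 1.22% than Aco1.

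The balance between higher and lower calls depended on scaling. Of the called genes, 49.9% were higher in RIS, but 37.9% with library size as the only scaling and 22.5% with limma on log2(TPM + 1), where the median of all genes lay at -0.22. On that TPM scale, Hmox2 was called lower at -0.23, Slc11a2 was not called at 0.14 and Fth1 stood at -0.48. Ncoa4 was also not called with DESeq2, with library size only, with limma on FPKM, or without RNC replicate 1 (0.15), RNC replicate 2 (0.13) or RIS replicate 2 (0.11). Ireb2 was not called with DESeq2, with length offsets (-0.06), or without RNC replicate 1 (-0.15) or RNC replicate 2 (-0.16), and it stood at -0.38 on the TPM scale.

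**Figure D4:**
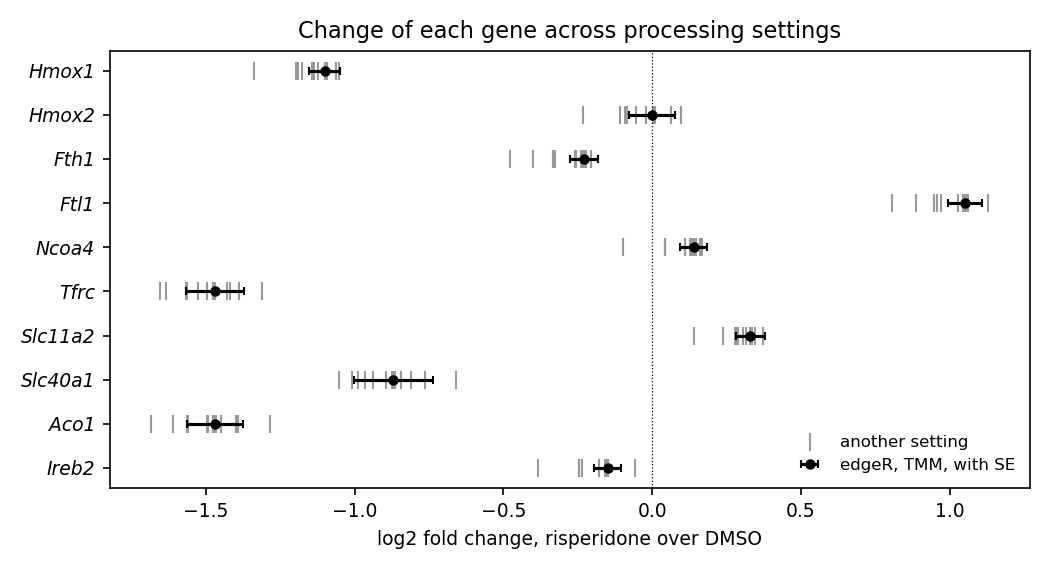
Log2 fold change of RIS over RNC for the 10 genes, as a point with the standard error of the edgeR fit, and a grey tick for each of the 16 alternative settings. Ftl1 (1.05) lies farthest to the right, Tfrc and Aco1 (-1.47 each) farthest to the left, and the range of Ncoa4 and of Hmox2 crosses 0.

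A list of 86 other genes of iron and heme metabolism was followed beside these, 82 of which were in the table and 71 of which averaged 1 FPKM or more. In this list, 32 genes (45.1%) rose, 15 (21.1%) fell and 24 were not called. That makes 66.2% called against 64.3% of all genes, with a median log2 fold change of 0.11 against 0.00. Without RIS replicate 2, 33 genes of the list were higher and 16 lower. On the TPM scale the list had 19 genes higher and 28 lower.

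Of the 3 partners of heme oxygenase, 2 rose. Beside this and the counts that follow stand the shares over all genes, 64.3% called, 32.1% higher and 32.2% lower, and lists this short and chosen with results known are described by their counts only. Por, the reductase that passes electrons to heme oxygenase, went from 96.80 and 95.59 to 162.94 and 158.62 FPKM (log2 fold change 0.84, SE 0.05, adjusted p = 1.41e-07). Blvrb, a biliverdin reductase, went from 25.86 and 28.39 to 49.95 and 46.18 FPKM (0.93, SE 0.07, adjusted p = 1.42e-06). Blvra, the main biliverdin reductase of adult tissue, was not called, at 10.73 and 12.62 FPKM in RNC and 8.80 and 10.65 FPKM in RIS (-0.16, adjusted p = 0.366), although it was called lower on the TPM scale (-0.39). Leaving out 1 library moved it between -0.30 (without RIS replicate 2) and -0.03 (without RIS replicate 1). Both called partners were higher in RIS, where Hmox1 was lower.

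In heme synthesis, 3 of 8 tested genes rose, 1 fell and 4 were not called (2 higher and 2 lower on the TPM scale). The one that fell, Uros, was named after its values were seen and had the largest change of this list. Uros, whose enzyme closes the porphyrin ring, went from 5.43 and 5.14 to 1.7 and 2.39 FPKM (-1.38, SE 0.20, adjusted p = 1.05e-04). Cpox, coproporphyrinogen oxidase, rose from 9.31 and 9.53 to 16.19 and 15.26 FPKM (log2 fold change 0.84, SE 0.06, adjusted p = 7.95e-07). The calls of Alas1, the first enzyme of the pathway (0.19, adjusted p = 0.0342), and of Fech, which inserts iron into the ring (0.14, adjusted p = 0.0252), were small, had libraries that overlapped and were each lost with the same sign in 8 of 16 alternatives. On the TPM scale they were also not called and had the opposite sign (-0.05 and -0.10). Both were lost without RNC replicate 1 (0.20 and 0.16) or RNC replicate 2 (0.18 and 0.12), Alas1 also without RIS replicate 1 (0.09) and Fech without RIS replicate 2 (0.105). Among heme transporters, 2 of 7 rose and 4 fell (1 higher and 5 lower on the TPM scale). Slc48a1, which brings heme out of lysosomes, rose from 145.10 and 147.71 to 186.05 and 180.28 FPKM (0.42, adjusted p = 1.95e-05). Flvcr1, a heme exporter, fell from 4.22 and 4.6 to 2.41 and 2.55 FPKM (-0.79, adjusted p = 2.15e-04), and the mitochondrial transporter Abcb10 fell by 0.64 on the log2 scale (adjusted p = 5.7e-06). Abcb6 was called at 0.29 (adjusted p = 0.0159), a call lost in 8 of 16 alternatives, among them those without RNC replicate 1 (0.29), RNC replicate 2 (0.30) or RIS replicate 2 (0.22). The other genes that fell, named after their values were seen, were Slc25a38 (-1.31), a mitochondrial glycine carrier, and Tmem14c (-0.28), a mitochondrial porphyrin transporter.

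Among the genes of iron uptake and reduction, 2 of 8 rose, 3 fell and 3 were not called, while 2 were higher and 5 lower on the TPM scale and 4 were higher and 3 lower with length offsets. Lcn2, a secreted protein that binds iron-loaded siderophores, was the most abundant gene of this list and fell from 3505.52 and 3654.51 to 1155.83 and 1244.59 FPKM (log2 fold change -1.47, SE 0.05, adjusted p = 1.13e-08). The metalloreductases Steap3 (0.54, adjusted p = 7.88e-04) and Steap1 (0.47, adjusted p = 1.95e-04) rose. Steap4, a metalloreductase of the same family, was chosen after its values were seen. It was at 6.10 and 6.72 FPKM in RNC and at 0.31 FPKM in both RIS libraries (-4.27, SE 0.18, adjusted p = 2.67e-08). Slc39a14, a metal importer also named after its values were seen, went from 81.58 and 82.86 to 64.97 and 67.36 FPKM (-0.22, adjusted p = 0.00159). Among the genes of export and systemic control, 2 of 4 rose and 2 fell (1 higher and 2 lower on the TPM scale). Cp, ceruloplasmin, which oxidizes iron as it leaves the cell, fell from 188.99 and 188.94 to 47.62 and 53.11 FPKM (-1.79, SE 0.06, adjusted p = 5.12e-09). Its relative Heph was called at 0.22 (adjusted p = 0.00333), but not with library size only, with limma on FPKM or without RNC replicate 2 (0.18), and it lay at -0.02 on the TPM scale. Hfe, named after its values were seen, went from 1.61 and 1.82 to 0.62 and 0.81 FPKM (-0.95, adjusted p = 0.00718). Its mean of 1.215 FPKM lay near the limit of 1 FPKM for testing, and it was not called without RNC replicate 2 (-0.83). Neo1, a co-receptor in the signal that sets hepcidin, rose by 0.43 on the log2 scale (adjusted p = 1.34e-05).

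All 6 genes of cytosolic iron delivery and sensor turnover were called, 5 higher and 1 lower, and on the TPM scale 3 were higher and 1 lower. The lower one, named after its values were seen, was Herc2 (-0.29), a ubiquitin ligase that controls the turnover of FBXL5, and it was not called with length offsets (-0.08). Fbxl5, the iron-sensing ubiquitin ligase subunit that marks IRP2 for degradation, rose from 28.11 and 29.99 to 54.13 and 52.94 FPKM (log2 fold change 0.98, SE 0.05, adjusted p = 9.95e-08). The iron chaperones that load ferritin rose as well. Pcbp1 went from 171.45 and 171.82 to 236.80 and 208.86 FPKM (0.47, adjusted p = 5.04e-05), and Pcbp2 from 766.52 and 746.49 to 1219.26 and 1089.07 FPKM (0.70, adjusted p = 2.75e-06). The Pcbp2 counts were not whole.

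Of 19 genes of mitochondrial iron import and iron-sulfur cluster assembly, 12 rose, 2 fell and 5 were not called, with a median log2 fold change of 0.28. That is 63.2% higher and 10.5% lower against 32.1% and 32.2% of all genes, while on the TPM scale 7 were higher and 3 lower. The counts were 9 and 3 with library size only or limma on FPKM, and 9 and 2 with length offsets. They were 10 and 2 with DESeq2, and 13 and 2 with a replicate block. Slc25a28, a mitochondrial iron importer, went from 15.85 and 14.28 to 32.71 and 25.09 FPKM (1.05, SE 0.11, adjusted p = 1.55e-05). Hscb, a co-chaperone of cluster transfer, went from 14.09 and 14.22 to 29.96 and 22.78 FPKM (0.998, SE 0.15, adjusted p = 1.3e-04). The RIS libraries of both genes were well apart, and without RIS replicate 2 the changes were 1.23 and 1.18. Abcb8, a mitochondrial transporter, fell by 0.83 on the log2 scale (adjusted p = 1.76e-04). Iba57, a late factor of cluster assembly named after its values were seen, had the largest change of the list, from 1.88 and 1.6 to 0.65 and 0.8 FPKM (-1.17, SE 0.20, adjusted p = 4.17e-04). For the cytosolic assembly machinery, 2 of 9 genes (22.2% against 64.3% of all genes) were called, both higher, namely Ciao2b (0.59, adjusted p = 3.89e-04) and Mms19 (0.27, adjusted p = 0.00283, lost on the TPM scale). These counts depended on scaling, with 2 higher and 2 lower with library size only, limma on FPKM or length offsets, and 1 higher and 4 lower on the TPM scale.

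The regulators of Hmox1 and ferritin transcription were measured as well. Of 7 tested, 2 rose, 2 fell and 3 were not called, and on the TPM scale 0 were higher and 5 lower. Nfe2l2, which encodes NRF2, fell from 74.06 and 74.25 to 33.95 and 37.15 FPKM (log2 fold change -0.96, SE 0.05, adjusted p = 1.2e-07). Bach1 measured 9.31 and 9.81 FPKM in RNC and 8.48 and 8.99 FPKM in RIS and was not called (-0.03, adjusted p = 0.657), nor was Keap1, the protein that targets NRF2 for degradation (0.01, adjusted p = 0.893). On the TPM scale, both were called lower (-0.26 and -0.22). The small MAF partners moved both ways, with Mafk at 0.43 (adjusted p = 2.38e-04) and Mafg at -0.23 (adjusted p = 0.00391). The call of Mafk was lost on the TPM scale (0.17), and that of Mafg without RNC replicate 2 (-0.20). Maff, named after its values were seen, was at 0.60 (adjusted p = 0.0123), a call lost with DESeq2, on the TPM scale (0.23) and without RNC replicate 1 (0.59), RNC replicate 2 (0.61) or RIS replicate 1 (0.47).

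Of 10 other target genes of NRF2, 2 rose, 4 fell and 4 were not called, with a median log2 fold change of -0.06. This is 60% called against 64.3% of all genes. Prdx1, a peroxiredoxin, fell from 393.15 and 383.44 to 286.84 and 282.24 FPKM (-0.35, adjusted p = 6.96e-05), and Gclc, the catalytic subunit of glutathione synthesis, fell by 0.25 (adjusted p = 0.0133), a call lost with no filter (-0.25) and without RNC replicate 2 (-0.21) or RIS replicate 1 (-0.16). Sqstm1, an autophagy receptor, rose by 0.38 (adjusted p = 1.51e-04). Nqo1 (0.46, adjusted p = 0.0425) and Txnrd1 (-0.12, adjusted p = 0.0489), named after their values were seen, lay near the threshold and were not called with DESeq2 or without RNC replicate 1 (0.41 and -0.15), RNC replicate 2 (0.51 and -0.09) or RIS replicate 1 (0.40 and -0.10). Both calls were also lost with no filter and with length offsets. That of Nqo1 was lost as well with library size only and on the TPM scale, and that of Txnrd1 with upper-quartile scaling and a replicate block, among others. Slc7a11, the cystine transporter, was named after its values were seen, and it was at 2.27 and 2.17 FPKM in RNC and 0.50 and 0.69 FPKM in RIS (-1.79, SE 0.15, adjusted p = 2.44e-06).

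**Figure D5:**
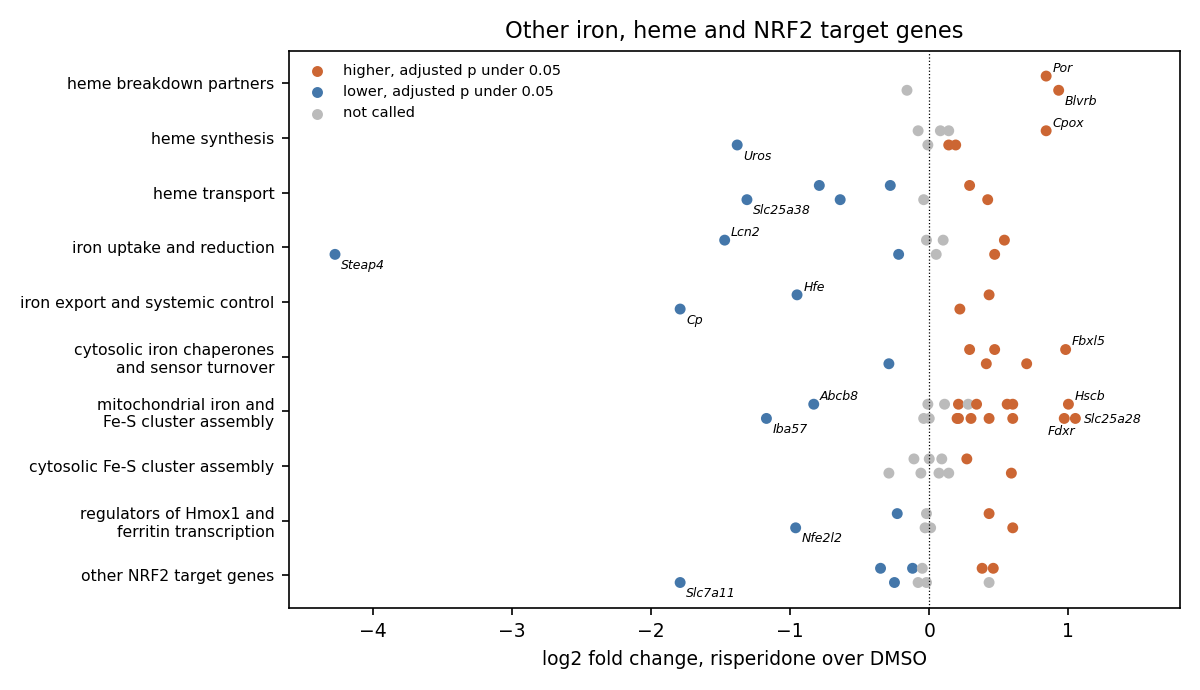
Log2 fold change of RIS over RNC for the tested genes of 9 lists of iron and heme metabolism and for 10 other NRF2 target genes, 1 point per gene, coloured by the call at an adjusted p under 0.05. Of the mitochondrial genes, 12 are called higher and 2 lower (7 and 3 on the TPM scale), and Steap4 (-4.27), Cp (-1.79) and Slc7a11 (-1.79) lie farthest to the left.

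The genes whose pattern came nearest to those of Hmox1, Fth1 and Ftl1 were looked up among the 1651 genes that averaged 50 FPKM or more, by the distance in log2(FPKM + 1) over the 4 libraries after subtracting each gene's mean. Nearest to Hmox1 were Ifitm2 (distance 0.05), Pnp (0.09) and Nab2 (0.11), and Ifitm2 measured 873 and 924.41 FPKM in RNC and 419.89 and 392.07 FPKM in RIS. Nearest to Fth1 were Immt, Ptbp1 and Ctbp1, at 0.01 to 0.03. Nearest to Ftl1 were the ribosomal protein genes Rpsa and Rpl28 (0.02 each) and the tubulin gene Tubb5 (0.03), and Rpl28 measured 1152.45 and 1141.20 FPKM in RNC and 2316.05 and 2064.88 FPKM in RIS. With 4 libraries in 2 groups, such nearness mostly reflects a like difference between groups.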

How the data were processed

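Sequencing was done on an MGISEQ-2000 and reads were quality-filtered by the authors. The submitters' processing notes name Bowtie2, RSEM, DESeq2 and GRCm38.p6 without versions. The authors deposited an expected count, FPKM and TPM per gene and library. The expected counts are not normalized, 91.2% to 91.7% of them are whole, and they were rounded here. The FPKM values deposited by the authors are scaled by length and depth, and the deposited TPM values also to a fixed sum.

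The 10 genes and all lists were chosen with earlier results of these data known. Counts of genes averaging 1 FPKM or more were fitted with edgeR 4.0.16 under R 4.3.3 (TMM normalization factors 0.963 to 1.03, biological coefficient of variation 0.0468), using the two-sided quasi-likelihood F-test and Benjamini-Hochberg adjustment. Standard errors were taken as the size of the log2 fold change over the root of the F statistic. With pooled cultures, p-values measure only the spread between libraries. Counts of replicates differed by more than counting error allows in 5% of cases for 12.4% (RNC) and 23.5% (RIS) of genes.

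Genes outside the 10 were named as up to 3 with the largest change per list at an adjusted p under 0.05 and a mean of at least 5 FPKM, plus 15 fixed names, most of which the first part also picked. Cell type markers were named from marker lists, those with fold changes after their values were seen. Other genes outside the rule were also named after their values were seen, as the text says at each. Symbols were matched to RefSeq (GRCm38.p6) for 15952 identifiers. Alternatives were DESeq2 1.42.0, other scalings and filters, limma 3.58.1 on FPKM and TPM, gene length offsets, a replicate block and leaving out each library. Python 3.11.15 with pandas 2.3.3 and matplotlib 3.10.9 was used for sequences and figures.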

Additional observations from a re-analysis of the deposited data

How the results depend on the processing

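Over 16 alternatives, the log2 fold changes of Hmox1, Fth1, Ftl1, Tfrc, Slc40a1 and Aco1 ranged from -1.34 to -1.05, -0.48 to -0.21, 0.80 to 1.13, -1.65 to -1.31, -1.05 to -0.66 and -1.68 to -1.28, and over the 6 alternatives run for it, the light to heavy ratio ranged from 2.345 to 2.52. Ireb2 ranged from -0.38 to -0.06, Slc11a2 from 0.14 to 0.37, Ncoa4 from -0.10 to 0.17 and Hmox2 from -0.23 to 0.10. Since this contrast chose the genes, these ranges describe the processing only. On the TPM scale, 1536 genes were called higher and 5292 lower, 1 of the 10 genes was called higher, the iron and heme list had 19 higher and 28 lower, and the NRF2 targets 1 higher and 7 lower. There, Hmox2 (-0.23), Ncoa4 (-0.10), Alas1 (-0.0537), Fech (-0.10), Heph (-0.0151) and Keap1 (-0.22) changed sign. The median of all genes was -0.22 in that fit, against -0.08 with limma on log2(FPKM + 1). Neither of these fits adjusts for library composition, and the cause of the sign changes was not tested. With a mean of at least 5 FPKM, fewer genes were tested, and the list had 9 lower and the NRF2 targets 1 higher. The NRF2 targets also had 1 higher with DESeq2, library size only, no filter and length offsets, 3 higher with upper-quartile scaling, and 2 lower with no filter. Leaving out each library gave 2666 to 3310 genes higher and 2725 to 3350 lower, 2 to 3 of the 10 genes higher and 5 to 6 lower, 25 to 33 list genes higher and 13 to 16 lower, and 1 to 3 NRF2 targets higher and 2 to 4 lower. In those fits the lone library of a group is assumed to vary like the other group.

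The replicate numbers are shared by the labels only, and deviations of same-numbered libraries correlated at -0.11. With a replicate block, 3292 genes were called higher and 3321 lower, the iron and heme list had 33 higher and 15 lower, the NRF2 targets had 3 higher and 3 lower, and the calls of the 10 genes did not change. With the replicate block crossed, an alternative added after the data were seen, 3474 genes were called higher and 3519 lower, and 3 NRF2 targets were higher. The 2 libraries per group, each of pooled cultures, limit the precision of these values.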
